A study of Mus musculus with 8 samples.

Results

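The 9 genes described here, Isl1, Phox2a, Tbx20, Chat, Slc18a3, Slc5a7, Prph, Calca and Calcb, mark cranial motor neurons and visceral neurons, and all 9 were found among the 24062 genes counted. They were listed by name, with their levels in mutants and controls already known, so their differences between the genotypes are given as a description, with no test. All 9 passed the filter on low counts, which a gene can pass through its level in 1 group alone. The study measured whole cerebella of single pups at postnatal day 2 by polyA RNA sequencing, with 4 libraries per genotype on a mixed C57BL/6 background. Mutants carried Math1-Cre with 1 floxed and 1 null Sufu allele. Controls were littermates with a floxed and a wild-type allele, and the sources used here do not say whether they had Cre. One parent of every pup was homozygous for a Math1 mgfp allele, per the labels' breeding scheme, so both groups would carry it. Math1-Cre acts in the lineage of the rhombic lip, which includes cerebellar granule cells. Each title also holds a letter of unstated meaning. Controls 1 and 2 and mutants 1 and 2 carry P, and controls 3 and 4 and mutants 3 and 4 carry R.

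Cranial motor neurons lie in the midbrain and brainstem, not in the cerebellum, and send axons to the muscles of the eye, face, jaw, throat and tongue or to visceral ganglia. They use acetylcholine, which choline acetyltransferase makes, the vesicular acetylcholine transporter loads into vesicles, and the choline transporter sustains by taking choline back up. Many of them, like neurons of the sensory ganglia, also hold the intermediate filament peripherin and the peptide CGRP. In bulk tissue, fewer cells of a type and less RNA per cell cannot be told apart.

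Counts in genes came to 21479565 to 26638284 per library, and a gene with 0 counts can still stand at up to 0.112 to 0.141 CPM (3 counts, counting error only). Sufu was 47.7 to 60.8 CPM in controls and 31.7 to 39.8 CPM in mutants, so no mutant reached the lowest control. Markers of the cerebellum itself were abundant, with a summed 1210 to 1510 CPM for 8 granule lineage genes in controls and 1280 to 2360 CPM in mutants. Mutants 2 and 4 held Y-linked transcripts, at a summed 231 and 213 CPM for 4 genes, against at most 0.221 CPM in the other 6 libraries, so all controls were female by this measure. Mutant 4 stood apart in the Hox genes of the hindbrain, at a summed 7.29 CPM over 17 genes against 120 to 219 CPM in controls.

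Calca and Calcb, close relatives, each encode a CGRP precursor, and Calca can also be spliced to an exon for calcitonin, the thyroid hormone that lowers blood calcium. The coding parts of the 2 CGRP exons and of the calcitonin exon are shown because the counts along Calca, below, bear on these products, and because reads from the CGRP exons may not tell the 2 genes apart. They were taken from GENCODE transcripts on GRCm38, and capitals mark bases that differ between the CGRP exons.
Calca CGRP exon, chr7:114632443-114632599, minus strand: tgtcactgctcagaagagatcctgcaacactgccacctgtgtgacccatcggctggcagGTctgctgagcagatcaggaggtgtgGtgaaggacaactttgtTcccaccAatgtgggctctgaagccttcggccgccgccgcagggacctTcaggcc
Calcb CGRP exon, chr7:114721975-114722134, plus strand: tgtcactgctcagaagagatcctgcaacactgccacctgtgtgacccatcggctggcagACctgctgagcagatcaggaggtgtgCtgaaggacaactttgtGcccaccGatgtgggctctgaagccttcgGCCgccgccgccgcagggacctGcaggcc
Calca calcitonin exon, chr7:114633605-114633785, minus strand: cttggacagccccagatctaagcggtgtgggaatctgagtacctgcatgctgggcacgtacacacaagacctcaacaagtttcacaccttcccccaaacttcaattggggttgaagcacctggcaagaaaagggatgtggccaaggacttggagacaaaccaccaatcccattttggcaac
The CGRP stretches were identical at 151 of 160 aligned positions (94.4%), and the first 59 bases were the same in both. The exon before them was identical at 75.0% of 144 positions, with no shared run over 11 bases. How reads that fit both genes were counted is not stated beyond the line for reads aligned to several places, so the split between Calca and Calcb is uncertain for the CGRP exon.

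All 9 members had lower means in mutants, and 4 of them, Isl1, Chat, Slc18a3 and Prph, had each mutant library below each control. Of all genes tested, 2.96% were placed this way and 3.6% the opposite way, and since the members were chosen on this comparison nothing is read from their count. In the test over all genes 0 of 15789 passed (0% called, edgeR adjusted p), with 1995 at an unadjusted p under 0.05 and 52 called by DESeq2. The fitted log2 fold changes of the members, given here as sizes, ran from -0.79 for Phox2a to -2.14 for Prph, against a median of 0.01 over all genes tested. Mutant 4 was the lowest of the 8 libraries for all 9 members, as it was for 23.2% of all genes tested.

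**Figure D1:**
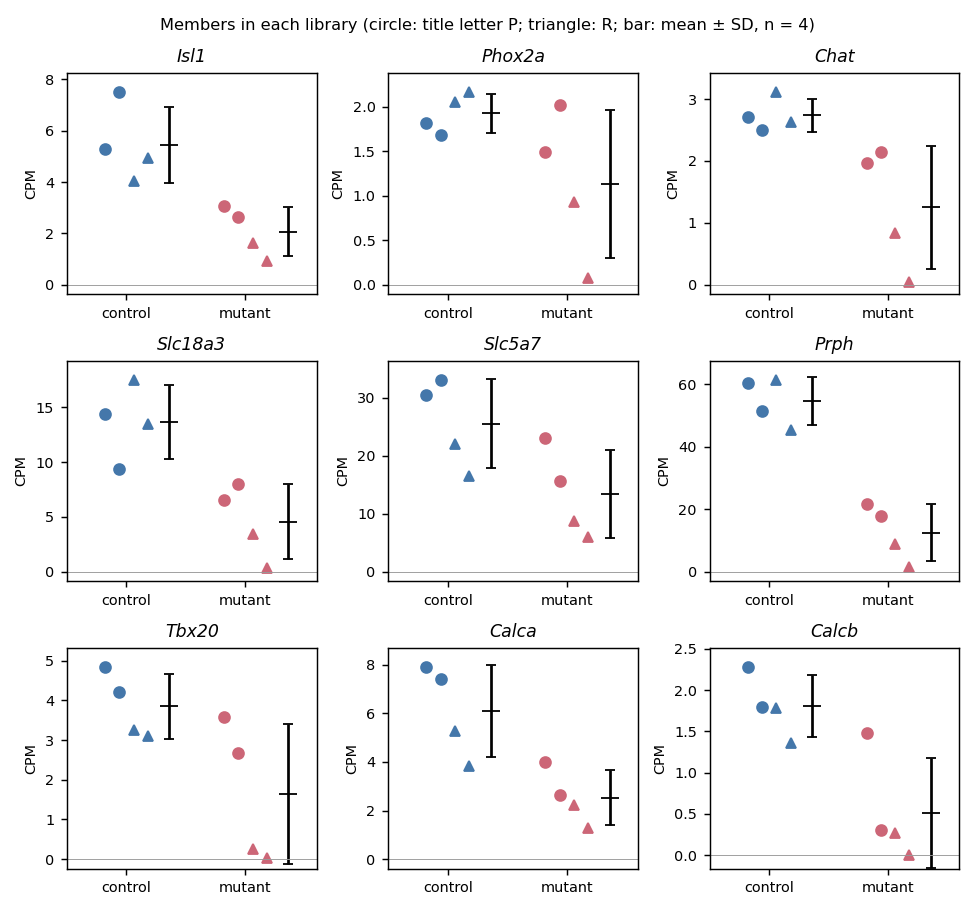
Level of each member in CPM (vertical axes) in the 4 control and 4 mutant libraries, with circles for title letter P, triangles for R and bars for the mean ± SD (n = 4). Mutants lie below all controls for Isl1, Chat, Slc18a3 and Prph, and mutant libraries with the letter R lie lowest in all 9 panels.

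Among the transcription factors, Isl1, a LIM-homeodomain factor of motor neurons and of sensory and autonomic ganglia, stood at 5.31, 7.49, 4.02 and 4.93 CPM in controls 1 to 4 and at 3.06, 2.62, 1.64 and 0.93 CPM in mutants 1 to 4. The groups did not overlap. Means were 5.44 ± 1.47 and 2.06 ± 0.96 CPM (SD, n = 4), a log2 fold change of -1.41 (SE 0.33), which ran from -1.67 to -1.16 when single libraries were left out. Phox2a, a homeodomain factor of the oculomotor and trochlear nuclei and of noradrenergic neurons, was 1.82, 1.68, 2.06 and 2.16 CPM in controls and 1.49, 2.02, 0.93 and 0.07 CPM in mutants. Mutant 2 lay within the controls, and mutants 3 and 4 were low. Its log2 fold change was -0.79 (SE 0.54), with -1.26 without mutant 2 and -0.38 without mutant 4. Tbx20, a T-box factor of branchial and visceral motor neurons of the hindbrain, was 4.84, 4.22, 3.24 and 3.10 CPM in controls and 3.59, 2.66, 0.27 and 0.04 CPM in mutants. Mutant 1 lay within the control range, while mutants 3 and 4 held 6 counts and 1 count. The log2 fold change was -1.25 (SE 0.73), with -1.996 without mutant 1 and -0.83 without mutant 4.

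Chat, Slc18a3 and Slc5a7 together equip a neuron to make, load and recycle transmitter. Chat, which makes acetylcholine, was 2.71, 2.498, 3.11 and 2.63 CPM in controls and 1.97, 2.15, 0.84 and 0.04 CPM in mutants. The control libraries lay close together, with an SD of 9.59% of their mean, and every mutant was below them. Slc18a3, the vesicular acetylcholine transporter, was 14.4, 9.33, 17.5 and 13.4 CPM in controls and 6.52, 7.99, 3.45 and 0.33 CPM in mutants. Its log2 fold change was -1.59 (SE 0.58) against -1.15 (SE 0.58) for Chat. When single libraries were left out these ran from -2.02 (without mutant 2) to -1.19 (without mutant 4) and from -1.57 to -0.73 (without the same mutants). Slc5a7, the choline transporter of the nerve ending, was 30.4, 33.1, 21.98 and 16.4 CPM in controls and 23.05, 15.6, 8.84 and 6.02 CPM in mutants. These groups overlapped, since mutant 1 lay above controls 3 and 4. The log2 fold change was -0.93 (SE 0.37), and ran from -1.34 to -0.69 without single libraries.

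Chat and Slc18a3 share a locus: on GRCm38 the RefSeq start of Slc18a3 lies 1059 bases downstream of that of Chat, on the same strand and inside the Chat gene. Slc18a3 held 3.73 to 5.63 counts for each Chat count in controls and 3.31, 3.72 and 4.11 in mutants 1 to 3. In mutant 4 the ratio was 9.0, from 9 counts over 1. The stretch before the Slc18a3 start is shown because both transcripts of the locus were lower together. It covers 250 bases and capitals mark the core of a cAMP response element (TGACG or its reverse complement).
Slc18a3 upstream, chr14:32464851-32465100, minus strand, RefSeq GRCm38.p6: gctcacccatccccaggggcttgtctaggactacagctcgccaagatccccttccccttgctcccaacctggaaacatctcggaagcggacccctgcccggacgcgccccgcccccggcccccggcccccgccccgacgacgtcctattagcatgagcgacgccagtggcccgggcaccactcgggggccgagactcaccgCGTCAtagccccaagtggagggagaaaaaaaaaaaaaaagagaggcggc
Calca upstream, chr7:114636358-114636607, minus strand, RefSeq GRCm38.p6: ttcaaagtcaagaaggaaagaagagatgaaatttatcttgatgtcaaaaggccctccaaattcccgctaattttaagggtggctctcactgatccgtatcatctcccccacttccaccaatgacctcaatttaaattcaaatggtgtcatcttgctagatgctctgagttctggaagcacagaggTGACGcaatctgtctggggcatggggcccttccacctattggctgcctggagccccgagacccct
Promoters of 8 of the 9 members were in the table, which holds 32851 windows from 250 bases before a start to 50 after it. Searched on both strands over the whole window, with overlaps between motifs allowed, TGACG was in 5 of the 8 (Isl1, Chat, Slc18a3, Tbx20 and Calca) and in 20.8% of all windows. CCAAT was in 4 (Isl1, Phox2a, Chat and Calca) and in 37.4% of all, and TATAAA in 2 (Prph and Slc5a7) and in 13.6% of all. TAATTA, a palindromic homeodomain dimer site, TGATNNAT and GGTGTGA were in 0 of the 8 and in 5.29, 0.487, 8.85 and 3.98% of all windows. The motifs were picked with their matches known, and a match is a run of letters, not a bound site.

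Prph, which encodes peripherin, an intermediate filament of neurons whose axons leave the brain, had the largest fitted fold change of the 9 over all libraries, though not without mutant 1, where that of Calcb was larger, nor within letter R, where those of Tbx20 (-4.45) and Calcb (-3.65) passed that of Prph (-3.43). It was 60.4, 51.4, 61.5 and 45.4 CPM in controls and 21.7, 17.7, 8.93 and 1.41 CPM in mutants. The groups lay far apart, with the highest mutant at 21.7 and the lowest control at 45.4 CPM. Means were 54.7 ± 7.64 and 12.5 ± 9.1 CPM (SD, n = 4), and the log2 fold change of -2.14 (SE 0.54) ran from -2.57 to -1.76 without single libraries.

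Calca was 7.90, 7.42, 5.26 and 3.85 CPM in controls and 3.98, 2.62, 2.21 and 1.26 CPM in mutants, so mutant 1 and control 4 overlapped. Calcb was 2.28, 1.80, 1.78 and 1.36 CPM in controls and 1.49, 0.30, 0.27 and 0 CPM in mutants. Mutant 4 had 0 Calcb counts, which allows up to 0.112 CPM, so the control mean was at least 16.2-fold higher than that library. The log2 fold changes were -1.29 (SE 0.33) for Calca and -1.84 (SE 0.67) for Calcb. Without single libraries that of Calca ran from -1.61 to -1.06, and that of Calcb from -3.30 without mutant 1 to -1.40 without mutant 4. The fitted value for Calcb rests in part on the library at 0 and is no bound.

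**Figure D2:**
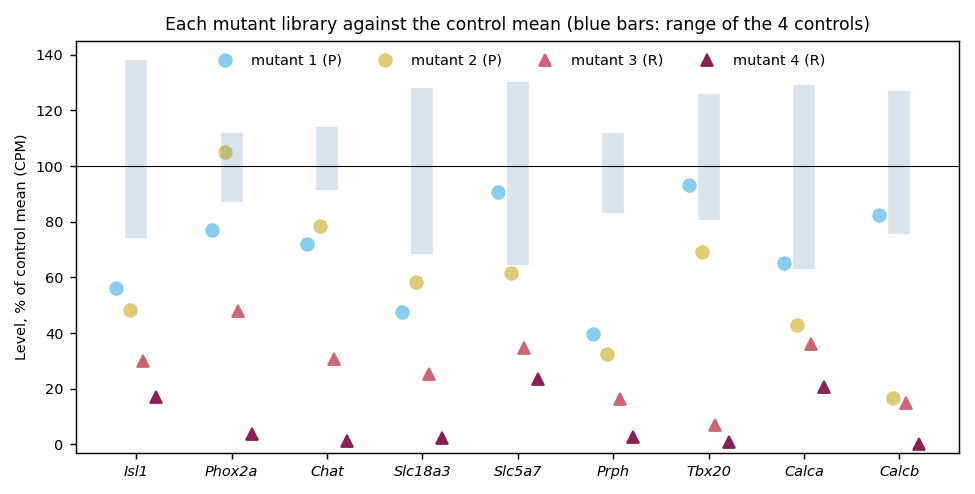
Level of each member in each mutant library as a percentage of the control mean (vertical axis), with blue bars for the range of the 4 controls. Mutant 4 keeps 17.1 to 23.6% for Isl1, Slc5a7 and Calca and 0 to 3.85% for the other 6.

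The members parted within the mutant libraries. In mutant 4, Slc5a7 stood at 23.6% of the control mean (exact 95% Poisson interval 20.1 to 27.6%), Calca at 20.7% (14.3 to 28.9%) and Isl1 at 17.1% (11.1 to 25.2%). Prph stood at 2.58% (1.83 to 3.55%) and Slc18a3 at 2.45% (1.12 to 4.65%) in the same library. Phox2a, Chat and Tbx20 had 2, 1 and 1 counts there, with upper limits of 13.9, 7.57 and 5.38%. These intervals cover counting error of the 1 library only. So in mutant 4 the intervals of the higher 3 did not meet those of Prph, Slc18a3, Chat, Tbx20 or Calcb, whereas that of Phox2a met that of Isl1. In mutant 1 the order was another one, with Tbx20 at 93.2%, Slc5a7 at 90.5% and Calcb at 82.4% of the control mean and Prph at 39.8%. The median over the 9 members was 71.9, 58.5, 30.1 and 2.58% of the control mean in mutants 1 to 4.

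The title letter, and its interaction with genotype, were not named in the choice of the members and were tested. The members were listed with their mutant levels known, and mutant 4, a library with R, was lowest for all 9. Their letter and interaction values are therefore not independent of that choice. Against the letter P, libraries with R had lower fitted levels of all 9 members, where 50.2% of all genes were lower, and 0 of 9 passed over all genes tested (0.019% of all genes called, edgeR adjusted p). Isl1, Slc5a7, Tbx20 and Calca had an unadjusted edgeR p under 0.05, as did 12.7% of all genes in this direction. Members may share the cells they come from and are not independent of each other. Slc5a7 came nearest, at a log2 difference of -1.04 (SE 0.20, edgeR adjusted p = 0.0568), ahead of Calca at -0.83 (SE 0.21, adjusted p = 0.0675) and Isl1 at -0.79 (SE 0.23, adjusted p = 0.0793). Slc5a7 passed without the filter (edgeR adjusted p = 0.0429), where 196 of 20954 genes tested were called. DESeq2 called Slc5a7, Calca and Isl1 (DESeq2 adjusted p = 9.35e-05, 0.0103 and 0.023), where it called 1679 of 14454 genes tested. In the controls alone, both R libraries lay below both P libraries for Isl1, Slc5a7, Tbx20, Calca and Calcb, as for 29.4% of all genes tested. Chat, Slc18a3 and Prph showed no such order there, and for Phox2a both R controls lay above both P controls.

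The mutant-control difference itself varied with the letter in Tbx20. Mutants with P held 69.0% of the level of P controls and mutants with R held 4.77% of that of R controls, an interaction of -3.89 on the log2 scale (SE 0.59, edgeR adjusted p = 0.0199), which passed. It was the 1 member of 9 called, where 3.2% of all genes were called (0.956% in the negative direction). In 4 of 9 (Phox2a, Chat, Slc18a3 and Tbx20) the unadjusted edgeR p was under 0.05, against 10.2% of all genes in this direction. The fitted interaction was negative for all 9, and for 48.1% of all genes tested, at -2.14 (SE 0.84) for Phox2a, -2.44 (SE 0.84) for Chat, -2.38 (SE 0.97) for Slc18a3 and -0.19 (SE 0.42) for Calca. These sizes rested on mutants 3 and 4. Without mutant 3 they were -4.73 for Phox2a, -5.74 for Chat and -4.80 for Slc18a3, and without mutant 4 they were -1.18, -1.43 and -1.46. For Calca the mutants held 43.1% of the control level within P and 38.2% within R. The Tbx20 call held in 4 of 10 alternatives, with edgeR adjusted p between 0.00243 and 0.107. The fitted value stayed negative in all of these, from -5.69 without mutant 3 to -3.02 without mutant 4, both of which kept the call. The call ended without any 1 of the 4 controls, mutant 1 or mutant 2, at -4.11 to -3.67. Each library left out leaves a genotype and letter with 1 library that is assumed to vary like the rest. With mutants 3 and 4 as its only R mutants, the contrast cannot be told apart from a difference between those 2 pups and the others.

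**Figure D3:**
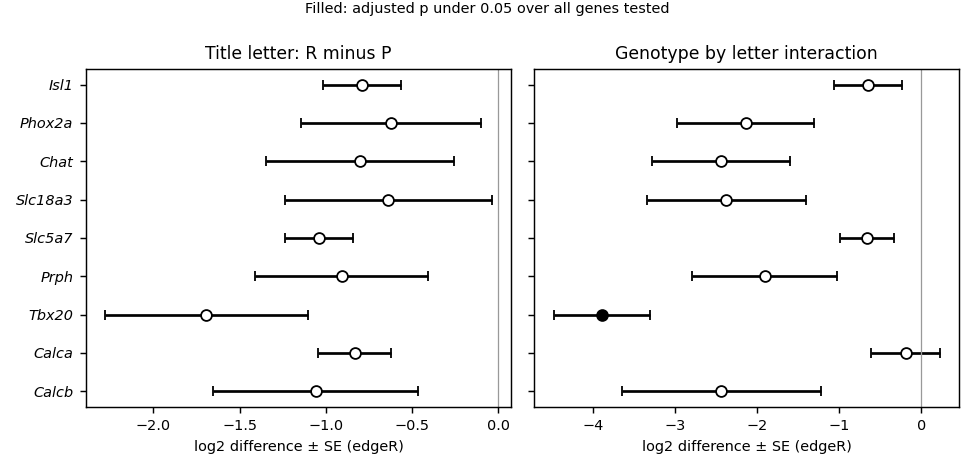
Fitted log2 difference ± SE for each member, for title letter R minus P (left) and for the interaction of genotype and letter (right), with filled points where the edgeR adjusted p is under 0.05. All points lie below 0, and the filled point is Tbx20 in the right panel, at -3.89.

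Counts by exon bin gave shares within a gene where its counts allowed. Chat and Tbx20 had 0 bins that passed the filter, Slc18a3 has 1 bin, and mutant 4 held 1 bin count for Phox2a and 0 for Calcb. Of the 9 members, 6 had at least 2 bins tested, and 0 passed (edgeR, Simes adjusted p = 1 for each, 0.00749% of 13351 genes called). The share of a gene's counts in its most counted bin could be compared in Isl1, Slc5a7, Prph and Calca. For Isl1 this was bin 1, with 40.6 ± 7.51% in controls and 45.4 ± 1.89% in mutants (SD, n = 4, exact permutation p = 0.314, adjusted p = 0.743). For Calca it was bin 4, with 24.9 ± 3.96 and 25.2 ± 0.84% (SD, n = 4, exact permutation p = 0.943, adjusted p = 0.943). Slc5a7 and Prph had adjusted p = 0.743 and 0.943 in the same exact permutation test, in which 4 against 4 libraries cannot go below p = 0.0286.

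Along Calca, few counts fell where the calcitonin exon would be. The gene has 7 bins on the minus strand, numbered from its far end, and in the exon order of GENCODE the calcitonin exon lies between the exon shared by both forms and the CGRP exon. Bin 3 has that place by order alone, and it held 15 of 1200 bin counts in the 4 controls and 16 of 453 in the 4 mutants. In GENCODE the calcitonin exon is 493 bases long and the CGRP exon 184. The share of bin 3, chosen after its values were seen and not tested, was 1.43, 1.03, 1.68 and 0.65% in controls and 1.70, 2.46, 6.38 and 6.56% in mutants. Mutants 3 and 4 were highest, on 6 of 94 and 4 of 61 counts, with Wilson 95% intervals of 2.96 to 13.2% and 2.58 to 15.7% that overlap those of controls 1, 3 and 4, and for mutant 4 also that of control 2. The neighbouring bins 2 and 4 held 31 to 104 and 33 to 111 counts in control libraries and 14 to 44 and 15 to 45 in mutants, while bin 3 held 1 to 6 and 3 to 6.

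Along Prph the shares were even among controls and uneven among mutants. Bins 1 to 4 of 11, chosen after their values were seen and not tested, held 36.5, 36.2, 35.6 and 36.1% of the Prph bin counts in controls. In mutants they held 26.4% (Wilson 95% interval 23.9 to 29.1%), 38.6% (35.5 to 41.8%), 35% (30.8 to 39.4%) and 53.8% (42.9 to 64.3%). All 4 mutants lay outside the narrow range of the controls, mutants 1 and 3 below it and mutants 2 and 4 above it, the last on 43 of 80 counts. The intervals of mutants 2 and 3 overlap those of controls. Bin counts came to more than gene counts, at 80 against 38 for Prph in mutant 4 and 421 against 204 for Calca in control 1. Slc18a3, with 1 bin, had 371 of both in control 1. Reads that span bins would thus count in several of them, and the intervals on bin shares, in Calca too, are too narrow.

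**Figure D4:**
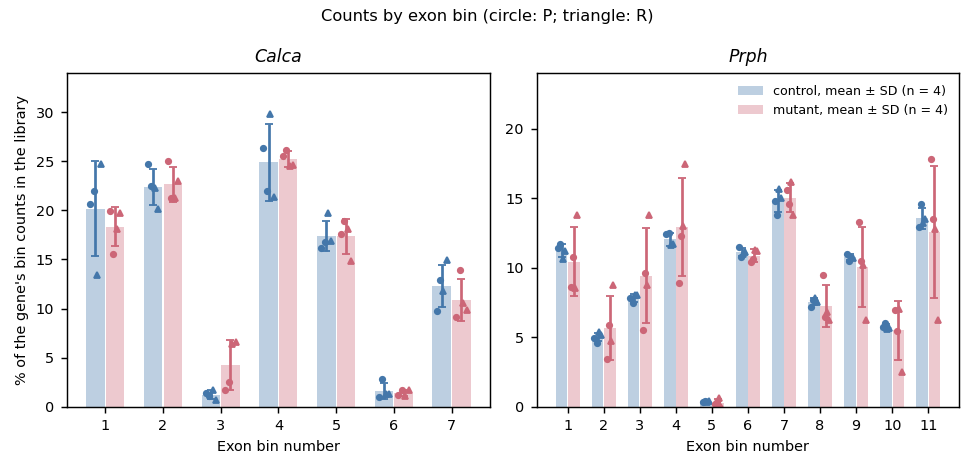
Share of each gene's exon bin counts that fell in each bin (vertical axis, %) for Calca (7 bins) and Prph (11 bins), as mean ± SD of 4 libraries with a point per library. Bin 3 of Calca holds 1.2% in controls and 4.27% in mutants on average, and mutant Prph shares scatter more than those of controls.

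Genes listed beside the members, chosen with results known, cover related programmes and neighbouring tissue. In the comparison of genotypes 0 genes of any of the 13 lists passed (edgeR adjusted p). Among 11 tested factors of motor neurons other than the members, 10 had negative log2 fold changes and 1 a positive one (median -0.73, where the median of all genes is 0.01 and 47.7% are negative), and 3 lay lower in all mutants than in all controls (2.96% of all genes did). Lhx3, which pairs with Isl1 in somatic motor neurons, was 4.10, 2.19, 2.47 and 1.92 CPM in controls and 1.05, 0.39, 2.12 and 0.19 CPM in mutants. Mnx1, the defining factor of spinal motor neurons, had at most 0.05 CPM in every library. Among 12 other genes that motor neurons use, 9 were negative and 5 lay lower without overlap (against the same 2.96%), among them Ecel1, a membrane protease of neurons, at 24.5 to 36.2 CPM in controls and 6.95 to 19.8 CPM in mutants. Gfra1 and Gfra2, the receptors that bind GDNF and neurturin, had interactions with the letter of -0.97 (SE 0.17, edgeR adjusted p = 0.0309) and -0.76 (SE 0.17, edgeR adjusted p = 0.0477). They were the only genes of the 13 lists called for the interaction, where 3.2% of all genes tested were called (0.956% in the negative direction). Nothing about motor neuron genes is read from these calls.

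Genes that handle or sense acetylcholine outside the 3 members were split. Of 12 tested, 8 were negative and 4 positive (median -0.29). Ache, which breaks acetylcholine down, was 67.4 to 94.2 CPM in controls and 31.3 to 66.1 CPM in mutants, with no overlap and a log2 fold change of -0.58 (SE 0.21). Of 7 tested genes for CGRP receptors and related peptides, 4 were negative and 3 positive (median -0.11), with Calcrl, the receptor that CGRP shares with adrenomedullin, at 0.44 (SE 0.15) and its partner Ramp1 at -0.35 (SE 0.14). None of these genes passed. Lhx8, which marks cholinergic neurons of the forebrain, had at most 0.16 CPM in every library.

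Markers of tissue next to the cerebellum were low beside the members in some mutant libraries and not in others. The 17 Hox genes summed to 134, 120, 219 and 194 CPM in controls and to 180, 65.2, 99.0 and 7.29 CPM in mutants. By this sum mutant 1 was within the control range and mutants 2, 3 and 4 below it. All 13 tested Hox genes had negative log2 fold changes (median -0.92), where 47.7% of all genes tested were negative. The sum of mutant 1 held 28.1 CPM of Hoxa5 and 21.0 CPM of Hoxb5, which varied among controls (6.08 to 30.8 and 5.35 to 38.4 CPM). Not every Hox gene of mutant 1 lay in the control range, as Hoxb2 was 6.17 CPM against 6.99 to 9.19 CPM. In mutant 1, Isl1, Phox2a, Chat, Slc18a3 and Prph were below all 4 controls. Of all genes tested, 24.3% lay that low in this library. Since the members were chosen on mutants against controls, nothing is read from their count. The 9 genes of monoamine neurons summed to 44.5 to 81.5 CPM in controls and to 73.4, 127, 33.3 and 15.3 CPM in mutants. Mutant 2 was above the controls through Slc6a2 (34.7 CPM, controls at most 9.95) and Dbh (19.03 CPM, controls at most 5.97), genes of noradrenergic neurons, which also use Phox2a. The part that the amount of adjacent tissue has in the levels of the members was not tested.

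Sensory ganglia also hold Isl1, Prph and Calca. Their 13 markers summed to 51.6 to 65.8 CPM in controls and 46.2 to 63.9 CPM in mutants. In mutant 4, Tlx3 alone, a factor that is not confined to sensory neurons, made 51.0 of 59.6 CPM. Without Tlx3, left out after its values were seen, the sums were 34.9 to 52.1 CPM in controls and 34.8, 32.7, 28.2 and 8.59 CPM in mutants. Control 2, which had the highest Isl1, also had the highest P2rx3 (8.43 CPM, other controls 3.90 to 5.30) and Scn10a (3.51 CPM, other controls at most 0.69), ion channels of pain-sensing neurons. The 8 Schwann cell markers summed to 68.5 to 108 CPM in controls and 42.5 to 63.1 CPM in mutants. Whether ganglia or nerve roots came with some cerebella was not tested. Hand1 and Hand2, the defining factors of autonomic ganglia, had at most 0.04 CPM in every library. Of 8 tested autonomic genes 6 were negative, among them Vip, a peptide of parasympathetic neurons, at 1.502 to 3.14 CPM in controls and 0 to 1.09 CPM in mutants. The 8 skeletal muscle genes summed to 9.67 to 25.9 CPM in controls and 6.88 to 9.33 CPM in mutants. This list and the Schwann cell list were, like the members, below all controls in all 4 mutants. So was the list of 12 other motor neuron genes (1090 to 1310 CPM in controls, 652 to 1070 CPM in mutants). In that list Gap43 alone made 739 of 1170 CPM in control 1 and 441 of 652 CPM in mutant 4. The sensory list was so placed only without Tlx3, and narrowly, at 34.8 CPM in mutant 1 against 34.9 CPM in the lowest control. How often other lists lie this way was not tested. All 5 tested skeletal muscle genes were negative, and all 8 granule lineage and all 8 Purkinje cell genes were positive (medians -0.53, 0.41 and 0.31).

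**Figure D5:**
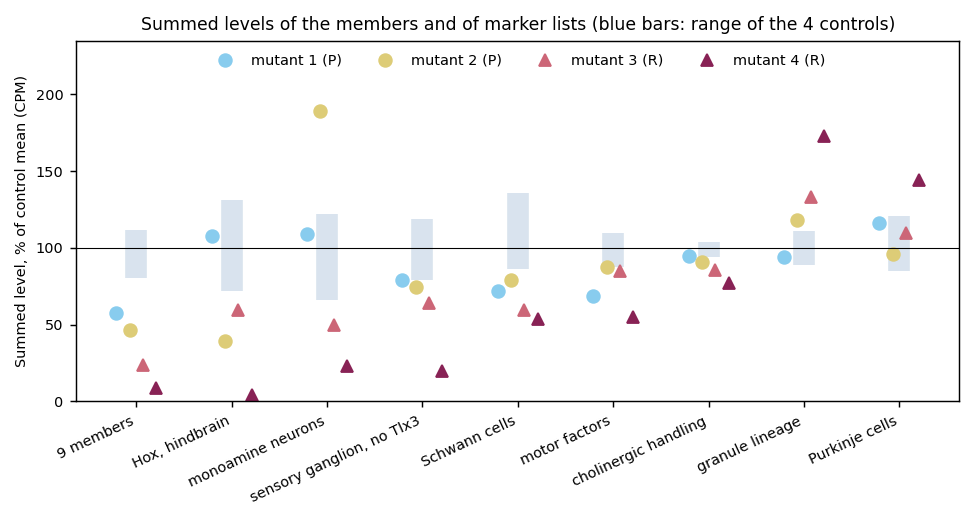
Summed CPM of the 9 members and of marker lists in each mutant library, as a percentage of the control mean (vertical axis), with blue bars for the range of the 4 controls. The members lie below the controls in all 4 mutants (57.8, 46.5, 23.7 and 8.74%), as do the Schwann cell list (71.7, 79.2, 59.8 and 53.4%) and, narrowly in mutant 1, the sensory list without Tlx3 (79.3, 74.5, 64.1 and 19.6%), while the Hox genes of mutant 1 (108%) and the monoamine genes of mutants 1 and 2 (109 and 189%) do not.

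The gene whose log2 level followed Isl1 most closely over the 8 libraries was Ppp1r1c (Pearson r = 0.99 over 14704 other genes with a mean of at least 1 CPM), ahead of Pla2g3, Ndel1, P2rx3, Car5b, Slc30a9, Bmper, Hapln1, Ghsr and Ifngr2 (r from 0.9561 to 0.98). The libraries share their genotype groups, and with the mean of each group removed the 10 nearest were Gca, Zcchc16, Atp6ap2, Ppp1r1c, S1pr1, Ddit4l, Gabrg3, Thsd7b, Ccdc85a and Papss2. Ppp1r1c was in both sets. Of the other members Calca ranked 25, Prph 27, Slc5a7 47, Calcb 78, Tbx20 137, Chat 422, Slc18a3 427 and Phox2a 999, and after removal of group means their ranks ran from 292 for Slc5a7 to 1659 for Slc18a3. With 8 libraries many genes reach such values, and these ranks are a description.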

How the data were processed

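The deposited files are tables of counts per gene and per exon bin, 1 of each for every library, as raw whole numbers that the authors had not normalized. Per the submitters' processing notes, TopHat, HTSeq and DESeq2 were used with mm9 (no version is stated). The sources used here do not name the gene annotation. Between 24.8 and 34.3% of the entries of a gene table stood on 5 summary lines that name no gene, and these were left out. Whether strand was used in counting is not stated, so overlapping genes cannot be told apart.

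The gene test was that of edgeR 4.0.16 under R 4.3.3 (quasi-likelihood F test, robust fit, filterByExpr, TMM scaling, two-sided) over 15789 of 24062 genes, with Benjamini-Hochberg adjustment and a threshold of 0.05. Levels are CPM on the TMM-scaled library sizes. The contrasts fitted were 3: genotype alone, the title letter beside genotype, and their interaction. Bin use went through diffSpliceDGE of edgeR, with Simes p-values, over 13351 genes. The share of the most counted bin was tested by exact permutation over libraries in members with at least 20 bin counts per library. DESeq2 1.42.0, other scaling, no filter and each library left out were tried as alternatives, and the steps were tested on simulated data. Per the labels each library is 1 pup, and no 2 libraries of a group agreed within counting noise.

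The members and the marker lists were chosen with earlier results of these data known. All members and the 10 genes most like Isl1 are named. Of each other list a rule picked the genes past the threshold or, with none, the 2 with the smallest p. Only some of the genes picked by this rule are named. Other genes named were chosen after their values were seen. Sequences and exon models come from RefSeq (GRCm38.p6) and GENCODE vM21 (GRCm38), not from the build of the counts, so no bin was placed by coordinates. Some genes of the lists are not reported here.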

Additional observations from a re-analysis of the deposited data

Results flagged for a closer look

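The interaction of genotype and title letter in Tbx20, at -3.89 on the log2 scale, stood out because the mutant-control difference differed between the letters by the test of that difference (edgeR adjusted p = 0.0199). Mutants 1 and 2 held 3.59 and 2.66 CPM and mutants 3 and 4 held 0.27 and 0.04 CPM. Tbx20 was listed with its mutant levels known, so this test is not independent of that choice. In the 18 sets of 4 libraries, for 9 members in 2 genotypes, 0 had a single library far from the other 3 by Dixon's criterion, which chance meets in about 1 of 20 sets.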

How the results depend on the processing

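The log2 fold changes of the 9 members between genotypes kept their sign in all 135 alternatives and moved by more than the spread between libraries in 7. The members were chosen with these levels known, and the alternatives reuse the same libraries. Nothing is therefore read from the kept sign. Phox2a came closest to 0, at -0.001 within title letter P. Without mutants 2 and 4, a setting chosen after seeing the data, the range over the members was -0.67 to -1.84, and 0 genes were called. The count of genes called between genotypes was 0 with TMM and 52 with DESeq2, and 0 to 1 without single libraries (1041 to 3186 at an unadjusted p under 0.05). With the title letter as a block it was 0 (2979 at an unadjusted p under 0.05). For the letter it was 3, against 0 with RLE size factors (4111 at an unadjusted p under 0.05), 196 with no filter, 1679 with DESeq2, and 0 to 1 without single libraries (2800 to 4053). For the interaction it was 505, against 1136 with DESeq2 and 1 to 2155 without single libraries. It was 2155 without mutant 3, 400 without mutant 4 and 1 to 39 without any other library. Without mutant 3, with mutant 4 as the only R mutant, the fitted interactions were -4.73 for Phox2a, -5.74 for Chat, -4.80 for Slc18a3 and -3.735 for Prph. The causes were not tested. The interaction of Calca, which was not called, ranged from -0.63 to 0.17 without single libraries and was positive without control 3 (0.05), mutant 1 (0.14) and mutant 4 (0.17). Bin use called 0 members in each of 10 alternatives. The low counts of mutant 4 limit the ratios and bin shares drawn from it. No paired analysis was possible because no 2 pups of 1 title letter share a number.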
